A study of Mus musculus with 1790 samples.

Results

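Gsx1, Gsx2, Nkx6-2, Pax6, Otx2, Six3, Gli1 and Ptch1 are 8 genes of ventral forebrain patterning. They were taken by name out of 30160 genes with a row in any of the 6 count tables used here, and no measured value entered the rule, although the list was drawn up with earlier results of these data known. All 8 had a row in the tables of the embryonic and P15 cells, and 4 of them (Gsx2, Nkx6-2, Pax6 and Ptch1) had one in the P30 table. They were compared between cells of the embryonic preoptic area (POA) and of the caudal ganglionic eminence (CGE), between newly divided and fate-mapped POA cells, and in postnatal cortical interneurons for what persists.

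The ventral forebrain is divided into progenitor domains by transcription factors that mark, and often repress each other across, their borders, while Sonic hedgehog (Shh) from the ventral midline supplies positional information. Gsx1 and Gsx2 are related homeobox factors of the ganglionic eminences, with Gsx2 prominent in dorsal progenitors of the lateral and caudal eminences and Gsx1 linked to progenitors that leave the cell cycle. Nkx6-2 is a homeobox gene of ventral progenitors. Pax6, a paired-box factor, is best known from cortical progenitors and opposes Gsx2 at the border between pallium and subpallium. Otx2 is a homeobox factor of the anterior brain, and Six3 is a homeobox factor of the anterior neural plate and eye field. Ptch1 encodes the Shh receptor that restrains the pathway and Gli1 a zinc-finger effector, and both are transcribed when the pathway is active.

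The study collected single cells of the mouse POA and CGE at E14.5 and of the somatosensory cortex at P15 and P30. Wild-type untreated embryos gave 1 droplet library of 2106 POA cells and 1 of 4115 CGE cells, with a 3′ kit that counts unique molecular identifiers (UMIs). On microfluidic C1 chips, 352 POA cells of wild-type embryos were captured after a FlashTag dye injection into the ventricle, which marks cells that divide at its wall and were sorted shortly afterwards. A further 418 POA cells were captured by fate mapping: they were Htr3a-GFP+ and carried Hmx3-Cre with a R26 tdTOM reporter, so they are restricted to the lineage and to cells in which Htr3a-GFP was on. The postnatal cells were all Htr3a-GFP+ cells of upper cortical layers from pooled brains. Per the methods, these mice also carried Hmx3-Cre with the R26 tdTOM reporter, so tdTOM marks the Hmx3 lineage. Cells were sorted with tdTOM (196 cells at P15, 301 at P30) or without it (194 and 280). For both the droplet and the FlashTag embryos the sources name C57BL/6 in one place and CD1 in another, whereas the fate-mapped line was kept on C57BL/6, and the labels name no animal for any cell. Each library or sort was therefore 1 sample, cells were not replicates, and no test was run. Intervals given below are exact 95% Poisson intervals for levels and exact 95% Clopper-Pearson intervals for shares of cells. They cover counting error only and are too narrow for levels, since 1 cell often held several UMIs of a gene.

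Droplet cells were split by comparing, within each cell, the summed UMIs of 7 progenitor markers (Sox9, Hes1, Mki67, Nes, Top2a, Fabp7 and Hes5) with those of 7 neuronal markers (Gad1, Stmn2, Dlx5, Dcx, Gad2, Tubb3 and Dlx6). Cells with more of the former are called progenitor-like (539 in the POA, 1336 in the CGE) and cells with more of the latter post-mitotic (1558 and 2738), and the 9 and 41 cells with equal sums entered neither class. The classes are ranges of 1 score. Progenitor-like POA cells had a median of 45 progenitor and 7 neuronal marker UMIs, and CGE ones 37 and 6, whereas post-mitotic cells had 3 and 47 in the POA and 3 and 35 in the CGE. Between 40% and 60% progenitor share lay 169 POA and 393 CGE cells. Median depths were 7595 and 7571 UMIs in the POA classes and 7104 and 5341 in the CGE classes, so shares are also given after thinning each cell to 3268 UMIs, which left out 178 progenitor-like and 435 post-mitotic CGE cells and no POA cell. The libraries shared 12 cell barcodes. Markers of the dissected regions went with the labels but were not exclusive: a UMI of Hmx2, Hmx3 or Nkx2-1 was found in 75.1% and 83.2% of the POA classes and in 28.0% and 30.1% of the CGE classes, and one of Nr2f2, Prox1 or Sp8 in 63.3% and 68.1% against 73.4% and 76.1%.

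The stretches of 250 bases before the annotated starts of Gsx1, Gsx2 and Otx2 are shown because the levels of these genes separated the regions, the first pair in opposite directions (RefSeq, GRCm38.p6). They lie on the plus strand at chr5:147188446-147188695 for Gsx1 and chr5:75075351-75075600 for Gsx2, and on the minus strand at chr14:48667645-48667894 for Otx2. No base of them is in a GENCODE exon. The Otx2 stretch precedes an internal start and lies inside the GENCODE gene model (chr14:48657677-48673819), so it is not the sequence upstream of the whole gene. Capitals mark the homeodomain core TAATTA.
Gsx1: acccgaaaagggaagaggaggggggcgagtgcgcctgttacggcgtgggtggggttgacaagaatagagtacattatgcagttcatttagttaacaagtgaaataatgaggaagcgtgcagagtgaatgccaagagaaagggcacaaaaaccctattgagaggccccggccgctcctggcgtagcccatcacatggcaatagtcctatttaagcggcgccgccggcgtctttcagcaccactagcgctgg
Gsx2: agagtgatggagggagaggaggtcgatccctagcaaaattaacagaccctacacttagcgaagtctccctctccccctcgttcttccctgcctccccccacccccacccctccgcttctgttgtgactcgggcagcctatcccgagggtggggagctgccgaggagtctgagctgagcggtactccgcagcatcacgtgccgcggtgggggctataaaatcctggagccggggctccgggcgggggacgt
Otx2: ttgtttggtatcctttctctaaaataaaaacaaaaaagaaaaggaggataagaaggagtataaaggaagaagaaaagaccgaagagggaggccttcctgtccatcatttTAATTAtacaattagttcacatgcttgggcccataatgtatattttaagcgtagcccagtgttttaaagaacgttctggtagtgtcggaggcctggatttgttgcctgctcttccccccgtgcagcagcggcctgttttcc
On both strands, TAATTA was searched beside GGATTA, a core bound by Otx-type homeodomains, and GACCACCCA, the Gli consensus, in 11 windows of 7 of the genes. Gli1 was not matched. Of 32851 promoter windows of the same length, 4.84% held TAATTA, 6.25% GGATTA and 0.225% GACCACCCA. The Otx2 stretch shown held 1 TAATTA, and a second Otx2 window, which lies within exons at chr14:48665110-48665359 and is not printed, held 3 TAATTA and 1 GGATTA. None of these motifs was found in the remaining Otx2 windows or in those of the other 6 genes, and a match or its absence is a description of the letters only.

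Between the regions, the genes split into those higher in the POA and those higher in the CGE. Levels are given as CPM, the UMIs of a gene summed over a class per 1000000 UMIs of that class, and every log2 fold was computed on CPM + 10. In progenitor-like cells, 6 of the 8 genes reached 10 CPM in the higher group. Otx2 and Ptch1 were at least 2-fold higher in the POA, a size reached by 1.68% of 9121 genes in that direction, and Gsx2 and Pax6 were at least 2-fold lower, as 0.46% of genes were. Gsx1 and Six3 stayed within 2-fold, and Nkx6-2 and Gli1 stayed under 10 CPM in both regions. In post-mitotic cells, Gsx1 and Otx2 were at least 2-fold higher in the POA (2.13% of 8932 genes) and Gsx2 and Pax6 at least 2-fold lower (1.24%), while Six3 and Ptch1 stayed within 2-fold. The median log2 fold over the 6 genes was 0.60 in progenitor-like and 0.48 in post-mitotic cells, beside 0.03 and -0.01 over all genes tested. With 1 library per region, the region cannot be told apart from the library. Fewer cells with a gene and less RNA of it per cell cannot be told apart in such sums. At few UMIs per cell, the shares of cells mix both too.

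**Figure D1:**
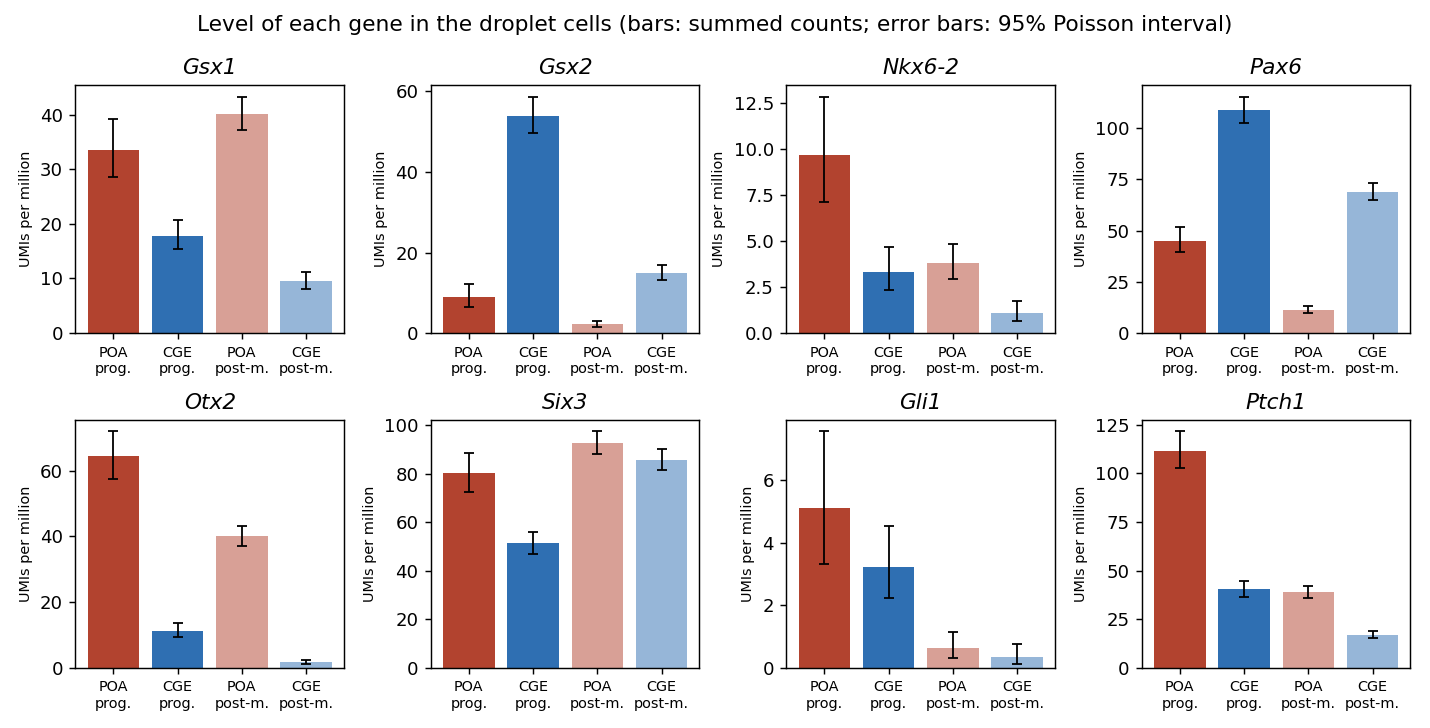
Levels of the 8 genes in CPM (y axis of each panel, own scale) in progenitor-like (prog.) and post-mitotic (post-m.) cells of the POA (red) and CGE (blue) droplet libraries, as bars of summed counts with exact 95% Poisson intervals. Gsx2 and Pax6 stand highest in CGE progenitor-like cells, Otx2 and Ptch1 in POA progenitor-like cells, and the Six3 bars of post-mitotic cells are nearly level.

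Markers of other cells differed between the regions too. A UMI of a glutamatergic or pallial marker was found in 22.3% of POA and 19.8% of CGE progenitor-like cells and in 41.5% against 18.3% of post-mitotic cells. Of the 7 markers of this list, only Slc17a6 was higher in the POA, in both classes. Emx1 was at least 2-fold lower there in progenitor-like cells, so the list did not move as a whole. Cajal-Retzius markers (Reln, Trp73 and Lhx5), mainly Lhx5, were found in 24.9% against 2.40% of progenitor-like and 47.9% against 5.95% of post-mitotic cells. These markers are not specific to Cajal-Retzius cells, and the list was found in 100% of the tdTOM+ cortical interneurons at P15. Choroid plexus or cortical hem markers, few in number, stood at 17.8 against 0.785 CPM in progenitor-like cells (8.16% against 0.374% of cells) and at 8.73 against 0.234 CPM in post-mitotic cells. Red blood cell haemoglobin transcripts stood at 1314 CPM against 443.5 in progenitor-like and 2139 against 515.3 in post-mitotic cells, while immune and vascular lists stayed under 7 CPM in all 4 groups. Haemoglobin UMIs were found in 92.4% to 98.7% of the cells of each class, and how much free RNA adds to the shares of the 8 genes was not measured. The part of these other cells and transcripts in the differences was not tested. Leaving out cells with any glutamatergic or pallial marker kept 911 of 1558 POA and 2237 of 2738 CGE post-mitotic cells. In these, the log2 folds of Gsx1 and Pax6 were 1.91 and -2.26, beside 1.36 and -1.88 with all cells. That of Otx2 was smaller, at 1.90 beside 2.09. In progenitor-like cells the Pax6 fold came within 2-fold, as given below.

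Gsx1 and Gsx2 went opposite ways. Gsx2 stood at 9.02 CPM (6.56 to 12.1) in POA and 54.0 CPM (49.6 to 58.7) in CGE progenitor-like cells, a POA level of 0.167 of the CGE level (0.120 to 0.227, log2 fold -1.75). This was the 6th lowest fold of the 9121 genes. Cells with a Gsx2 UMI made up 6.31% of POA and 27.2% of CGE progenitor-like cells, and 2.78% and 14.9% after thinning. In post-mitotic cells Gsx2 stood at 2.12 and 14.9 CPM and the CGE level was 7.00 times as high (4.92 to 10.2), with a UMI in 1.93% and 7.71% of cells. The log2 fold of -1.04 lies near the line, at -0.98 with thinned sums, -0.91 with the stricter class and -0.98 without the top 5% of cells by UMIs. The Gsx2 intervals of the regions did not meet in either class. Gsx1 was found at 33.6 CPM (28.7 to 39.2) in POA and 17.9 CPM (15.4 to 20.7) in CGE progenitor-like cells, a ratio of 1.88 (1.52 to 2.34). Among post-mitotic cells the gap was wider, with 40.2 CPM (37.2 to 43.3) against 9.54 CPM (8.13 to 11.1), a ratio of 4.21 (3.55 to 5.03) and a log2 fold of 1.36. The shares behind it were 14.7% against 2.67% of cells, or 8.15% against 1.61% after thinning. A cell with Gsx1 held on average 2.97 UMIs of it in the POA and 2.23 in the CGE, without thinning. Such means leave out cells without a UMI. At these low counts they do not separate fewer cells with Gsx1 from less RNA of it per cell.

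Nkx6-2, a low gene in both libraries, leaned to the POA. Its 47 UMIs in POA progenitor-like cells made 9.64 CPM (7.08 to 12.8), and its 34 UMIs in CGE ones 3.34 CPM (2.31 to 4.66), a ratio of 2.89 (1.82 to 4.63). In post-mitotic cells the levels were 3.78 and 1.11 CPM, with a UMI in 3.40% and 0.548% of cells. The progenitor-like level of Nkx6-2 was 2.55 times the post-mitotic one in the POA (1.71 to 3.78) and 3.00 times in the CGE (1.66 to 5.57).

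Pax6 was a CGE gene in this pair of libraries. It stood at 45.1 CPM (39.4 to 51.5) in POA and 108.6 CPM (102 to 115) in CGE progenitor-like cells, 2.41 times as high in the CGE (2.08 to 2.80, log2 fold -1.11), with a UMI in 17.4% and 38.2% of cells and in 10.2% and 24.9% after thinning. This fold lies near the line: with a class requiring 2 times the UMIs of the other list it was -0.97, and without cells holding a pallial marker -0.93. The regions parted further among post-mitotic cells, where Pax6 stood at 11.4 CPM (9.84 to 13.1) against 68.9 CPM (65.0 to 72.9), 6.05 times as high in the CGE (5.19 to 7.08) and the 9th lowest log2 fold of 8932 genes at -1.88. A Pax6 UMI was found in 5.84% of POA and 20.0% of CGE post-mitotic cells. Pax6os1, an antisense neighbour, had 2 and 10 UMIs in progenitor-like cells and is too low to compare.

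Otx2 had the largest lean to the POA of the 8 genes. Progenitor-like cells held 64.4 CPM (57.5 to 71.9) in the POA and 11.3 CPM (9.32 to 13.6) in the CGE, a ratio of 5.71 (4.59 to 7.13) and a log2 fold of 1.81, the 35th highest. Otx2 was found in 32.8% of POA and 7.04% of CGE progenitor-like cells, or 18.6% and 3.71% after thinning. In post-mitotic cells the POA level was 40.1 CPM (37.2 to 43.3) and the CGE level 1.76 CPM (1.19 to 2.51), a ratio of 22.9 (15.9 to 34.1). Only 24 of 2738 CGE post-mitotic cells (0.877%) had an Otx2 UMI, beside 346 of 1558 POA cells (22.2%). Otx2os1, a long noncoding RNA that runs from the Otx2 locus in the opposite direction (chr14:48668708-48870683, plus strand, against chr14:48657677-48673819, minus strand, for Otx2), had 60 UMIs in POA and 6 in CGE progenitor-like cells, 12.3 against 0.589 CPM, a ratio of 20.9 (9.06 to 59.2). In post-mitotic cells it had 111 and 2 UMIs. The gene models overlap on opposite strands, and whether the droplet counting used strand is not given in the sources used here.

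Of the 6 genes that reached 10 CPM, Six3 differed least. It stood at 80.2 CPM (72.4 to 88.6) in POA and 51.3 CPM (47.0 to 55.9) in CGE progenitor-like cells, a ratio of 1.56 (1.37 to 1.78), and at 92.8 CPM (88.2 to 97.5) and 85.9 CPM (81.6 to 90.4) in post-mitotic cells, a ratio of 1.08 (1.01 to 1.16). The share of post-mitotic cells with a UMI was nonetheless 37.8% in the POA and 23.3% in the CGE, and 19.7% and 16.0% after thinning.

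Of the readouts of Shh signalling, Ptch1 was higher in the POA and Gli1 had too few UMIs to tell. Ptch1 stood at 111.8 CPM (103 to 122) in POA and 40.3 CPM (36.5 to 44.4) in CGE progenitor-like cells, a ratio of 2.77 (2.43 to 3.16, log2 fold 1.27). It was found in 53.4% of POA and 23.0% of CGE progenitor-like cells, and in 29.7% and 11.5% after thinning. In post-mitotic cells 38.8 CPM (35.9 to 41.9) stood against 17.0 CPM (15.1 to 19.0), a ratio of 2.29 (1.99 to 2.64) whose log2 fold of 0.86 remained within 2-fold after the added 10 CPM. Gli1 had 25 UMIs in POA and 33 in CGE progenitor-like cells, 5.13 against 3.24 CPM, and the interval of its ratio (1.58, 0.903 to 2.74) includes 1. A Gli1 difference was not detectable at this depth, and post-mitotic cells had only 11 and 6 UMIs of it.

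Among 21 genes of the Hedgehog pathway, a list also drawn up with earlier results known, 20 had a row, and 11 reached 10 CPM in progenitor-like cells of either region. Of these, Shh and Ptch1 were at least 2-fold higher in the POA, Gli3 was at least 2-fold lower, and 8 stayed within 2-fold, with a median log2 fold of -0.11. Shh, the ligand, stood at 40.0 CPM in POA and 1.86 CPM in CGE progenitor-like cells (log2 fold 2.08) and at 13.7 and 1.70 CPM in post-mitotic cells (1.02). Gli3, which mainly acts as a repressor of Shh targets, stood at 16.8 against 55.4 CPM (-1.29). Gli2, the main activator, stood at 4.51 against 16.3 CPM (-0.86). The coreceptors did not share a direction: Boc had 8.61 against 15.4 CPM and Gas1 4.51 against 12.0 CPM, whereas Lrp2 had 19.9 against 11.9 CPM. Smo, the signal transducer that Ptch1 restrains, was nearly level at 63.0 and 69.1 CPM. In post-mitotic cells 5 pathway genes reached 10 CPM, and Shh was the gene at least 2-fold higher, with 0 lower.

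Of 33 further regional genes, listed under the same condition, 31 had a row in both libraries. In progenitor-like cells 27 reached 10 CPM, of which 10 were at least 2-fold higher in the POA, 4 lower and 13 within 2-fold. The 10 were Nkx2-1 (361.8 against 125.3 CPM), the key factor of the medial eminence and POA, Dbx1 (116.5 against 0.196), a factor of POA and pallial border progenitors, the hypothalamic genes Rax and Otp, the midline factors Zic1 (148.5 against 5.50) and Zic4, Lhx8, Isl1, and the secreted factors Fgf15 (59.7 against 10.8) and Fgf17. The 4 were Dlx2 (126.8 against 269.1 CPM), a factor of forebrain GABAergic progenitors, Emx1 (1.03 against 13.4), a pallial factor, Meis2 (156.3 against 525.0) and Sp9. Zic4 and Rax had 0 UMIs in CGE progenitor-like cells, which by a floor of 3 counts allows up to 0.294 CPM, beside 77.3 and 11.9 CPM in the POA. In post-mitotic cells 25 reached 10 CPM, with 10 higher in the POA (Nkx2-1, Nkx2-2, Dbx1, Lhx8, Emx2, Otp, Zic1, Zic4, Isl1 and Fgf15) and 6 lower (Dlx2, Meis2, Sp8, Sp9, Nr2f1 and Ebf1).

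**Figure D2:**
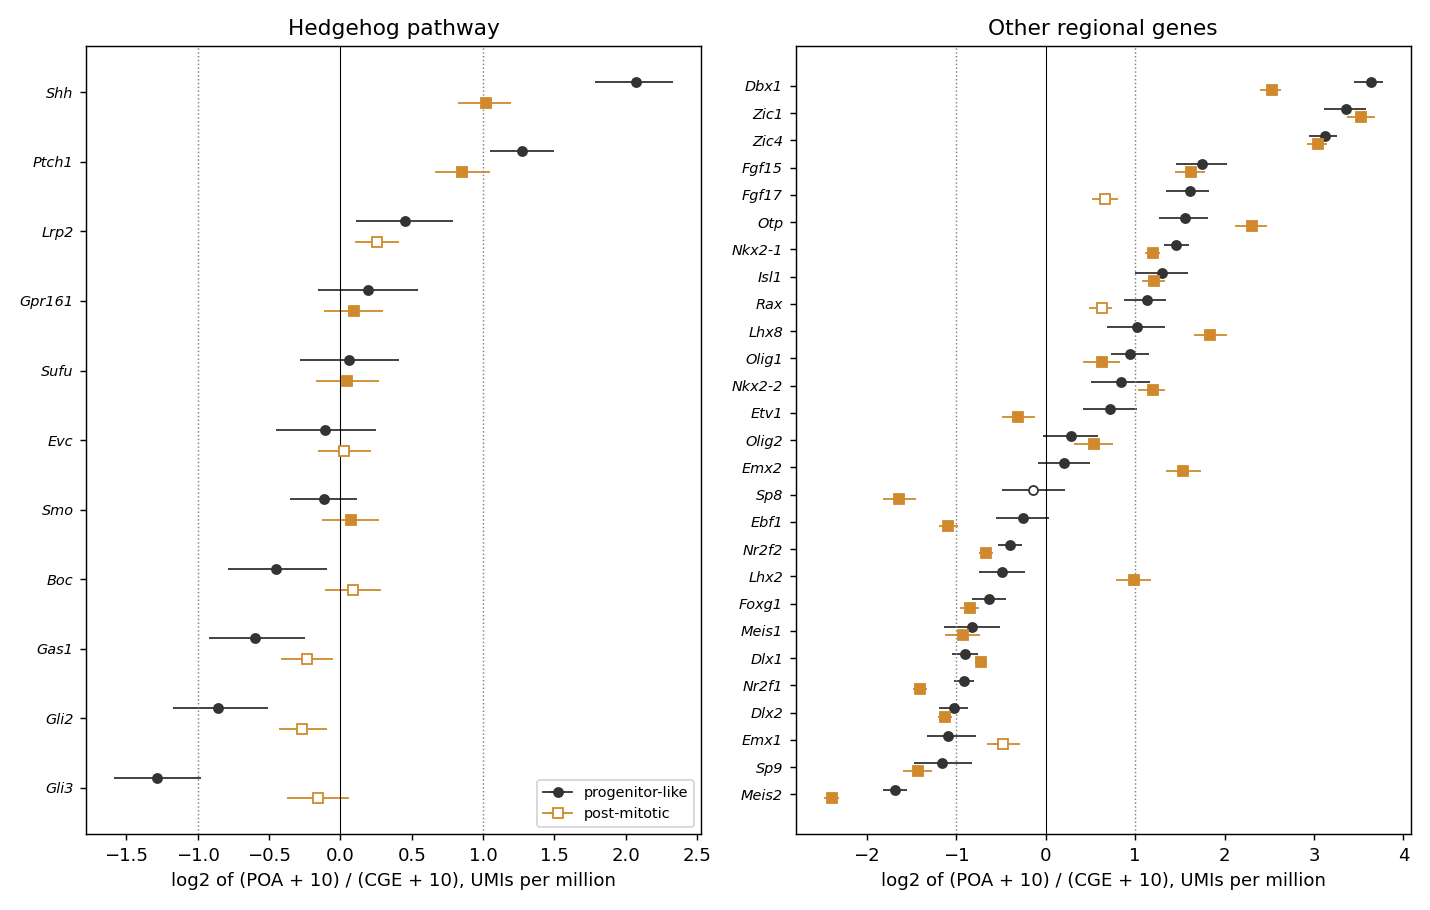
Log2 fold of POA over CGE droplet cells after adding 10 CPM (x axis). Genes of the Hedgehog pathway (left) and other regional genes reported here (right) are shown where they reached 10 CPM in either class. Black circles are progenitor-like and orange squares post-mitotic cells, and open symbols lie under 10 CPM. Bars run between opposite 95% Poisson limits of both levels, so they are wider than 95% intervals. Dotted lines mark 2-fold. Shh and Ptch1 lie at 2.08 and 1.27 and Gli3 at -1.29 in progenitor-like cells, and Meis2 lies lowest of the regional genes in both classes.

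Within each library, progenitor-like cells were set against post-mitotic cells, so that region and library are shared. In the POA, Pax6 and Ptch1 were at least 2-fold higher in progenitor-like cells (5.34% of 9443 genes were) and none of the 8 genes was lower (2.69%). The ratios were 3.96 (3.25 to 4.83) for Pax6 and 2.88 (2.56 to 3.23) for Ptch1. In the CGE, Gsx2 was the gene at least 2-fold higher (5.66% of 9114 genes), at 3.63 times its post-mitotic level (3.12 to 4.23), and none was lower (5.12%). Gsx2 in the POA had a ratio of 4.25 (2.67 to 6.79) but stayed under 10 CPM. Pax6 in the CGE was 1.58 times as high in progenitor-like cells (1.45 to 1.71), Ptch1 2.38 times (2.04 to 2.77) and Otx2 6.43 times (4.27 to 9.96). After 10 CPM were added, Ptch1 and the low Otx2 stayed within 2-fold, at log2 folds of 0.90 and 0.86. Six3 ran the other way, with progenitor-like cells at 0.597 of the post-mitotic level in the CGE (0.540 to 0.661) and 0.864 in the POA (0.772 to 0.966).

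Finer steps followed each gene along the marker score. Cells were put into 5 bins of equal width of the progenitor share of marker UMIs, holding 164 to 1245 POA and 370 to 2084 CGE cells. The neuronal list holds GABAergic genes (Gad1, Gad2, Dlx5 and Dlx6), so equal shares need not mean equal maturation in both regions. Median depths of the bins ran from 7191 to 10926 UMIs in the POA and from 5171.5 to 7271 in the CGE. Doublets were not called, and their part in the middle bins was not tested. Gsx1 was highest in the bin next to the progenitor end in both regions. In the POA it stood at 18.2 CPM at the progenitor end, 60.6 in the next bin, then 50.4, 45.0 and 36.2 at the neuronal end. In the CGE the same bins held 5.35, 39.9, 29.6, 25.8 and 3.28 CPM. The ratio of POA to CGE was lowest in the bin of the peak, at 1.52, and higher at both ends, at 3.39 in the progenitor bin and 11.0 in the neuronal bin. Gsx2 was lower in each later bin of the CGE, from 56.0 over 51.6, 41.0 and 25.5 to 9.35 CPM and was between 9.91 and 1.04 CPM in the POA.

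By ratio, Pax6 and Otx2 parted the regions most at the neuronal end. Pax6 in the CGE went from 128.6 CPM to 79.8 after the first bin and then stood at 71.0, 68.9 and 68.3, whereas in the POA it went from 61.1 over 35.3, 21.0 and 15.9 to 9.10. Otx2 in the POA stood at 64.4, 67.1, 48.3, 61.0 and 34.4 CPM, and in the CGE it went from 13.1 over 10.6, 5.17 and 3.60 to 0.820. Hence the CGE to POA ratio of Pax6 went from 2.10 to 7.51 and the POA to CGE ratio of Otx2 from 4.93 to 41.9 towards the neuronal end. The last Otx2 ratio rests on 10 UMIs in the CGE. In CPM, the gap between the regions was wider at the progenitor end for both genes. Ptch1 was lower towards the neuronal end in both regions, from 133.0 to 30.2 CPM in the POA and from 46.1 to 16.4 in the CGE. Six3 was higher towards the neuronal end in the CGE, from 50.5 to 94.3 CPM, and met the POA level there (92.8). Nkx6-2 was at or under 10.6 CPM and Gli1 at or under 7.02 CPM in every bin, too low for an order of the bins.

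**Figure D3:**
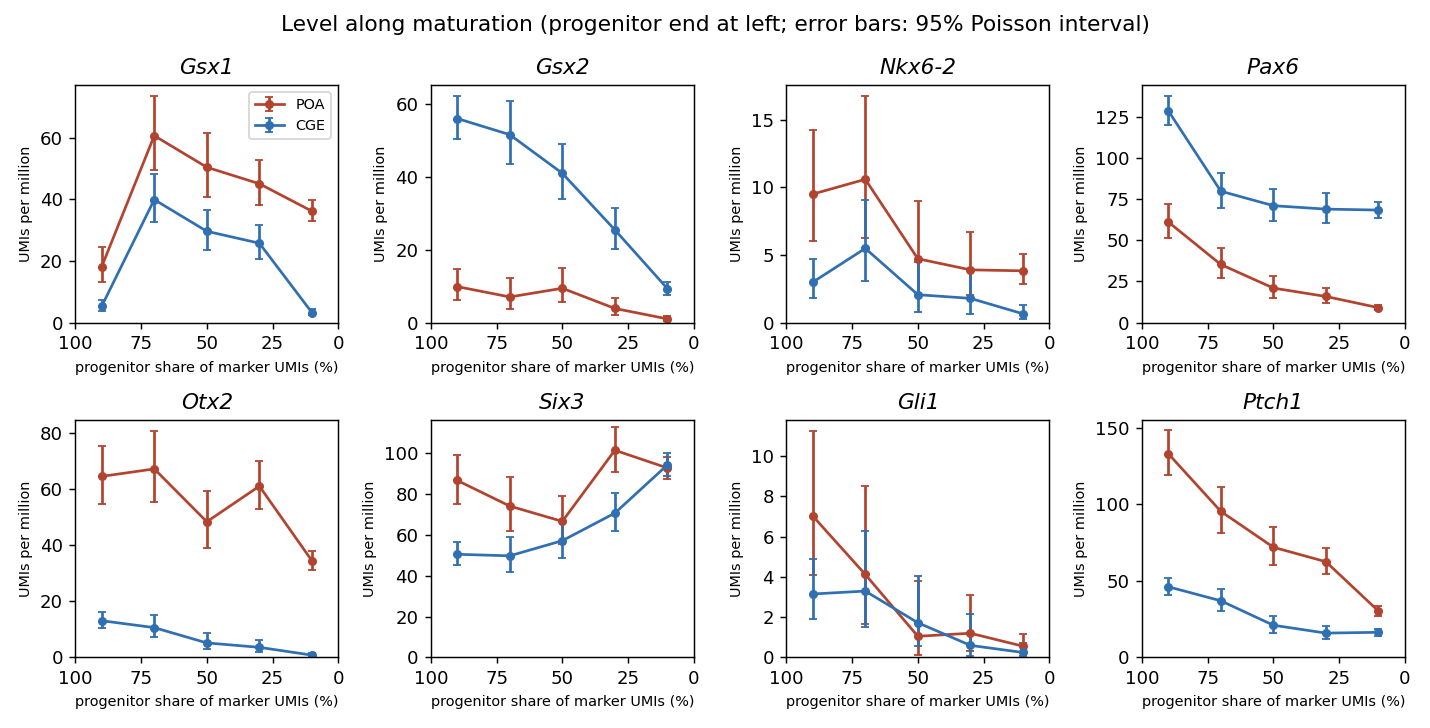
Levels of the 8 genes in CPM (y axis, own scale) in 5 bins of the progenitor share of marker UMIs (x axis, in percent, progenitor end at left) in POA (red) and CGE (blue) droplet cells, with exact 95% Poisson intervals. Gsx1 peaks at 60.6 and 39.9 in the second bin from the progenitor end, and Pax6 levels off near 68.3 in the CGE while it lies at 9.10 in the POA.

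For each of the 8 genes, up to 3 of the genes with the most similar profile over the 10 points (5 bins in 2 libraries) were named out of 10097 candidates, by Pearson correlation of log2(CPM + 10). The points share 2 libraries and their depths, so these values are a description without a test. Otx2 was nearest to Slit2 (r = 0.991), Rps18-ps3 (0.989) and Wdr89 (0.988). Ptch1 was nearest to Fndc3b (0.993), Fst (0.987) and Lpp (0.987). Gsx2 was nearest to Kcnh7 (0.991), Ivns1abp (0.978) and Usp28 (0.978). Gsx1, with its peak inside the series, had weaker neighbours, among them Rgs16 (0.898) and Tfrc (0.892). The others were Rbm7, Rock1 and A830082K12Rik for Pax6 (0.966, 0.966 and 0.957), Neu1, Zdhhc9 and Sos1 for Six3 (at most 0.959), Smox, Hspa2 and Adhfe1 for Gli1 (0.974, 0.968 and 0.965), and Hyal2, Dnah7a and Osbpl1a for Nkx6-2 (0.966, 0.939 and 0.930). With 4 bins in place of 5, all 3 named for Otx2 were still among its 5 nearest, whereas 0 of the 3 were for Six3, Gli1 and Nkx6-2, whose neighbours thus rest on the choice of bins.

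Which genes occurred in the same cell was counted in progenitor-like cells thinned to 3268 UMIs, 539 from the POA and 1158 from the CGE. A count with both genes is set beside the product of both shares, which is what independent detection gives. Pax6 and Otx2 were seldom found together in the POA, in 2 cells beside a product of 10.2. Six3 and Ptch1 were found together in 48 POA cells beside 32.9, and Pax6 and Ptch1 in 25 beside 16.3. Otx2 showed no such lean with Six3 (21 beside 20.6) or Ptch1 (28 beside 29.7). In the CGE, Gsx2 and Pax6 shared 46 cells beside 42.8, Six3 and Ptch1 17 beside 19.5, Otx2 and Six3 15 beside 6.31, Gsx1 and Pax6 4 beside 10.4, and Pax6 and Otx2 8 beside 10.7. In post-mitotic POA cells, Pax6 and Otx2 shared 4 cells beside 3.32 and Six3 and Ptch1 35 beside 33.3, so the leans of these pairs in progenitor-like cells were not found there.

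POA progenitor-like cells with Pax6 and with Otx2 also held different partners, the pairs below being chosen after their values were seen. Nkx2-1 was found in 12 of 55 cells with Pax6 (21.8%, 11.8 to 35.0) against 61.8% (57.3 to 66.1) of cells without it, and Nr2f2, a nuclear receptor of the caudal eminence, in 67.3% (53.3 to 79.3) against 30.6% (26.5 to 34.9). Nr2f2 leaned the other way in cells with Otx2, 100 in number, where it was found in 17.0% (10.2 to 25.8) against 38.3% (33.7 to 43.0). Nkx2-1 differed far less there than in cells with Pax6, at 64.0% against 56.3%, which is too close to call a lean. Cells with Otx2 held Dbx1 in 31.0% (22.1 to 41.0) against 14.1% (11.0 to 17.7) and Emx2 in 20.0% (12.7 to 29.2) against 5.47%. Dbx1 was found in 3.64% of cells with Pax6. Gsx1 went with Dlx2 in both regions, which was found in 59.5% (42.1 to 75.2) of 37 POA cells with Gsx1 against 20.7%, and in 71.4% (55.4 to 84.3) of 42 CGE cells against 41.9%. In the CGE, 288 cells with Pax6 held Nkx2-1 in 7.29% (4.57 to 10.9) against 24.4% (21.5 to 27.4) and Emx1 in 6.60% against 1.72%, while Emx1 was found in 0 of 172 cells with Gsx2.

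**Figure D4:**
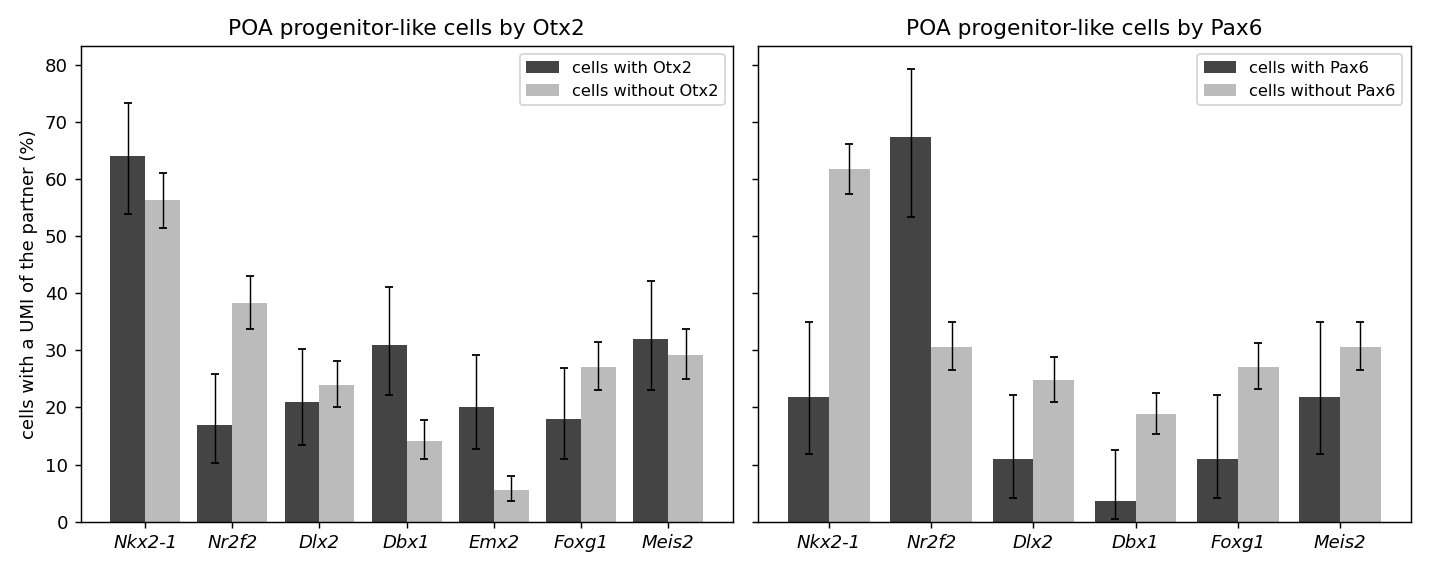
Share of POA progenitor-like cells, thinned to 3268 UMIs, that held a UMI of each partner gene (y axis, percent), among cells with (dark) and without (light) Otx2 (left, 100 of 539 cells) or Pax6 (right, 55 of 539 cells), with exact 95% Clopper-Pearson intervals. Nr2f2 stands at 17.0% with Otx2 and 67.3% with Pax6, and Nkx2-1 at 64.0% and 21.8%.

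In post-mitotic cells other pairs differed too, again chosen after their values were seen. In the POA, Dlx2 was found in 66.9% of 127 cells with Gsx1 against 38.4% of the others, Emx2 in 29.7% of 148 cells with Otx2 against 10.1%, and Six6, a relative of Six3, in 20.2% of 307 cells with Six3 against 6.00%. In the CGE, Sp8 was found in 26.4% of 303 cells with Pax6 against 11.8%, and Meis2 in 73.6% against 55.3%. Of the 368 CGE cells with Six3, 78.5% held Meis2 against 53.7%. Nkx2-1 was scarcer in the CGE cells with Pax6 (12.9% against 25.1%), as it was in progenitor-like ones.

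On C1 chips, FlashTag cells were set against fate-mapped cells of the POA. Of the FlashTag cells, 301 were progenitor-like and 51 post-mitotic, whereas 6 fate-mapped cells were progenitor-like and 412 post-mitotic, so the sorts differ in maturation. Median depths were 283979 and 356990 counts. Of the 5 genes that reached 10 CPM, Pax6, Otx2, Six3 and Ptch1 were at least 2-fold higher in FlashTag cells (15.3% of 10438 genes were), Gsx1 stayed within 2-fold, and none was lower (7.53%). Pax6 had the largest difference, with 176.4 CPM in FlashTag against 4.52 CPM in fate-mapped cells (log2 fold 3.68), found in 188 of 352 cells against 11 of 418. Ptch1 followed with 367.2 against 47.0 CPM (2.73), in 84.4% against 42.3% of cells. Otx2 stood at 125.0 against 17.3 CPM (2.31), in 43.5% against 9.09% of cells, and Six3 at 186.3 against 55.6 CPM (1.58), in 68.8% against 40.4%. Six3os1, a noncoding RNA that overlaps Six3 on the other strand, stood at 389.5 against 28.3 CPM (3.38), and per the methods the C1 counting took strand into account. Gsx1 stood at 15.7 against 3.98 CPM, found in 29 and 17 cells. Its ratio of 3.94 (3.59 to 4.32) came within 2-fold after 10 CPM were added (log2 fold 0.88). Gsx2, Nkx6-2 and Gli1 stayed under 5 CPM, and 1 cell held 96.6% of the 29 Gli1 counts of fate-mapped cells. Glutamatergic or pallial markers were found in 20.2% and 25.4% of the cells, Cajal-Retzius markers in 12.2% and 50.0%, and choroid plexus or hem markers in 5.68% and 6.22%, the last at 25.4 against 10.5 CPM. The Cajal-Retzius list includes Reln and was found in 100% of tdTOM+ cells at P15, so its share is not a share of Cajal-Retzius cells. The part of these markers was not tested, and sort, capture and possibly strain cannot be told apart from the groups.

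Among post-mitotic cells alone, a comparison chosen after seeing the data, Pax6, Six3 and Ptch1 were at least 2-fold higher in FlashTag cells (11% of 9967 genes) and none was lower (10.3%). The cells of this class still differed in maturation, with a median progenitor share of 17.9% in FlashTag and 0.852% in fate-mapped cells and medians of 183 and 15 progenitor marker counts. Pallial markers stood at 59.6 against 36.5 CPM in them, in 23.5% and 25.5% of cells, and their part was not tested. Six3 stood at 268.1 against 53.9 CPM and Ptch1 at 126.4 against 40.3 CPM. Pax6 stood at 159.3 against 4.60 CPM, but of 27 FlashTag cells with a count 8 held 10 or more, the median was 1 count, and 1 cell held 37.1% of them. Otx2 (30.7 against 17.6 CPM) rested on 1 cell with 64.4% of the counts, and without the largest cell of each group its log2 fold went from 0.56 to -0.10. The 6 progenitor-like fate-mapped cells had Ptch1 in 5 of them and Six3 in 2, and Pax6 in none.

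**Figure D5:**
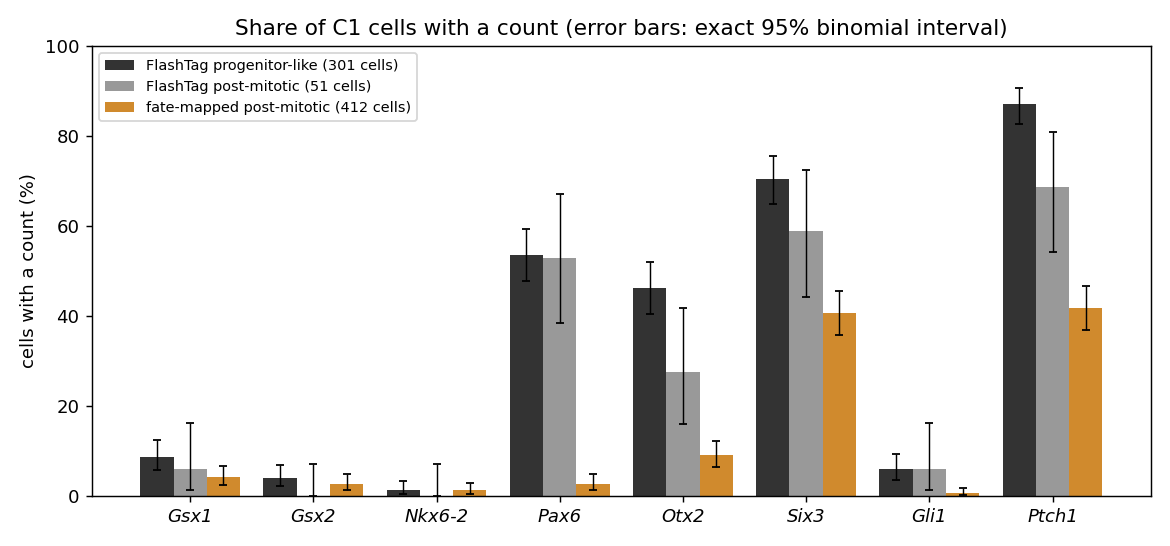
Share of C1 cells with at least 1 count of each gene (y axis, percent) in progenitor-like and post-mitotic FlashTag cells and in post-mitotic fate-mapped cells of the POA, with exact 95% Clopper-Pearson intervals. Pax6 was found in 53.5%, 52.9% and 2.67% of these groups and Ptch1 in 87.0%, 68.6% and 41.7%. With 10 or more counts required, Pax6 was found in 98 of 301 progenitor-like FlashTag cells and in a smaller share of post-mitotic ones.

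In FlashTag progenitor-like cells, taking a gene as present from 10 counts on, some pairings of Pax6 were looked at in a second collection of POA cells. This alternative was also chosen after seeing the data. Nkx2-1 was present in 17.3% of 98 cells with Pax6 against 44.8% of the others, and Fgf15 in 35.7% against 14.3%. Both went the same way as in the droplet cells, where Fgf15 was found in 23.6% of cells with Pax6 against 11.4%. These pairs were named after their values were seen. Other droplet pairings of Pax6, with Nr2f2 and Dbx1 among them, are not given for FlashTag cells, so the pairings were not repeated as a set. The scarcity of cells with both Pax6 and Otx2 was not seen, with 28 cells beside a product of 26.7, and Six3 and Ptch1 shared 100 beside 94.7. Cells with Six3 held Nkx2-1 in 45.3% against 28.0%.

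After birth, Ptch1 and Pax6 were the genes of the 8 with more than scattered counts. At P15, Gsx1, Otx2, Six3 and Gli1 had 0 counts in 196 tdTOM+ and 194 tdTOM- cells. By a floor of 3 counts per sort, this allows up to 0.0494 and 0.0533 CPM. Of the 17465 rows of the P15 table, 4331 had 0 counts, so this was not particular to these 4 genes. The P30 table, in which all 17465 rows held a count, has no row for these 4. Gsx2 and Nkx6-2 stayed under 0.5 CPM in every sort. Ptch1 was found in 35.2% and 33.5% of tdTOM+ and tdTOM- cells at P15, at 21.6 and 38.5 CPM, and in 26.2% and 20.0% at P30, at 23.4 and 16.5 CPM. Pax6 was found in 10.2% and 9.79% of cells at P15, at 12.3 and 10.5 CPM, with 1 tdTOM+ cell holding 50.1% of the counts. At P30 it was found in 7.31% and 15.0% of cells, at 5.16 and 20.8 CPM, a log2 fold of -1.02. This was the gene at least 2-fold lower in tdTOM+ cells at P30 (1.79% of 10124 genes were) and 0 were higher (1.21%). The fold lies near the line, at -0.96 as the mean CPM of single cells and -0.95 in chip rows 21 to 40. At P15 none of the 8 was 2-fold higher (0.561% of 8916 genes) or lower (0.74%). The P15 and P30 tables share 11979 of their 17465 rows each, and no comparison of levels was made across ages.

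Postnatal Pax6 was uneven over the subtypes. The labels' subtypes were assigned by the authors from the same expression values, so they are a description. In the Lamp5 Krt73 subtype, the 3 cells at P15 held 65, 84 and 373 Pax6 counts, and the 8 cells at P30 held 0, 0, 5, 6, 87, 134, 206 and 230. These cells made 330.0 and 251.1 CPM, whereas all other named subtypes together made 4.04 CPM at P15 (18 of 221 cells with a count) and 5.94 CPM at P30 (25 of 263). Cells left without a subtype held as many counts in all, 532 at P15 in 18 of 166 cells (11.6 CPM) and 670 at P30 in 33 of 310 cells (9.63 CPM), beside 522 and 668 in the Lamp5 Krt73 cells. The subtype whose name includes Pax6, Lamp5 Fam19a1 Pax6, had it in 1 of 7 cells at P15 and 1 of 5 at P30. Both sorts contributed to the Lamp5 Krt73 cells, with 1 of 3 tdTOM+ at P15 and 3 of 8 at P30, but their counts were uneven. At P15 the tdTOM+ cell held 373, the largest Pax6 count of that sort, and the tdTOM- cells 65 and 84. At P30 the tdTOM+ cells held 0, 6 and 87 and the tdTOM- cells 0, 5, 134, 206 and 230. The Pax6 folds between the sorts include these few cells and were not computed without them.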

How the data were processed

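All values start from deposited counts, raw and without normalization by the authors, with genes in rows and cells in columns. Per the methods and the submitters' processing notes, droplet reads went through Cell Ranger 3.0.2 and C1 reads through STAR and UMI-tools, both on mm10 (GRCm38). The authors removed droplet cells with few genes or a high mitochondrial share, and clusters of vascular, blood, Cajal-Retzius, immune and glutamatergic cells. No doublet caller was run here. Library totals were 21887059 (POA) and 27516180 (CGE) UMIs, and 107308055 (FlashTag) and 154371495 (fate-mapped) counts. The 47 patch-seq cells were not used here.

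Groups came from the labels. The members and gene lists were chosen with earlier results of these data known. Counts were summed per group and scaled to CPM, 10 CPM were added before log2, and a gene was compared where the group with more of it reached 10 CPM. Past the fold means 2-fold or more. Named were all 8 genes, list genes past the fold in a droplet comparison, and per gene the 3 with the highest correlation among genes with at least 100 UMIs. A gene of the regional list and a neighbour of Gsx1 are not reported here. Other Hedgehog genes, partners in single cells and subtypes were named after their values were seen. The alternatives were 1 or 100 CPM added, mean CPM of single cells, thinned sums and shares, the largest cell left out, totals without mitochondrial and ribosomal genes, no filter, a class needing 2 times the counts, no top 5% of cells by UMIs, no cells with pallial markers, chip rows 1 to 20 or 21 to 40, and 4 bins. Gene coordinates are from GENCODE M21. The steps were tested on simulated data and run in Python 3.11.15 with pandas 2.3.3, numpy 2.4.6, scipy 1.17.1 and, for plots, matplotlib 3.10.9.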

Additional observations from a re-analysis of the deposited data

Results flagged for a closer look

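Results for 3 genes pointed opposite ways in 2 settings of the same contrast, and in none of them was the difference itself tested. Gsx1 was lower in progenitor-like than in post-mitotic cells of the POA (33.6 against 40.2 CPM, log2 fold -0.20). Its ratio was 0.837, with an exact interval of 0.701 to 0.994 that ends just under 1. The interval of the log2 fold, drawn between opposite Poisson limits and so wider, was -0.46 to 0.06 and includes 0. In the CGE, Gsx1 was higher in progenitor-like cells (17.9 against 9.54 CPM, log2 fold 0.51). Ptch1 was lower in tdTOM+ than in tdTOM- cells at P15 (21.6 against 38.5 CPM, log2 fold -0.62) and higher at P30 (23.4 against 16.5 CPM, 0.33). Pax6 was slightly higher in tdTOM+ cells at P15 (12.3 against 10.5 CPM, 0.12), where 1 cell held 50.1% of the counts, and lower at P30 (5.16 against 20.8 CPM, -1.02).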

How the results depend on the processing

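No paired analysis was possible because each group is 1 library or sort and no result comes from a test. Of 619 fold changes of the 8 genes under an alternative, 396 stayed within their counting interval, 223 moved beyond it and 0 that were past 2-fold changed sign, and of 172 counts of genes past 2-fold, 152 stayed within 1.5 times. With 100 CPM added, the counts higher and lower went from 2 and 2 to 0 and 0 in both POA against CGE comparisons, to 0 in progenitor-like against post-mitotic cells of either region, to 2 in FlashTag cells and to 0 at P30. In progenitor-like cells, 1 gene (Gsx2) stayed lower in the POA where a class needed 2 times the counts or cells with pallial markers were left out. In post-mitotic cells 1 gene (Pax6) stayed lower with thinned sums, the stricter class or no top 5% of cells. Progenitor-like cells had 4 genes higher by thinned shares in the POA, and in the CGE 5 by shares, 3 with 1 CPM added and 3 with the stricter class. Shares gave 1 gene (Gsx2) lower in tdTOM+ cells at P15, and at P30 mean CPM and chip rows 21 to 40 gave 0 lower, with Pax6 at -0.96 and -0.95. Over all genes, those past 2-fold went from 195 to 518 with 1 CPM added, 23 with 100 CPM added and 1322 by shares in progenitor-like cells, and from 301 to 675, 34 and 1213 in post-mitotic cells. Depth limits Gli1 and Nkx6-2, and with 1 library per region no spread between animals is known.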
